A study of Homo sapiens with 6 samples.

Results

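The mRNAs of glucose uptake and glycolysis examined here were those of the glucose transporter *SLC2A1*, the hexokinase *HK2* and the enzymes *ALDOA*, *TPI1*, *GAPDH*, *PGK1*, *PGAM1*, *ENO1*, *PKM* and *LDHA*. These 10 genes were chosen by their function, with earlier results of these data known. Their clusters were all those that overlapped an exon of the gene in GENCODE release 44 by 1 nt or more on the same strand. This gave 334 of the 244645 clusters of the series, and 10 of the 9353 protein-coding genes with an exonic cluster in an IGF2BP3 library. The data came from IR-PAR-CLIP, in which cells take up 4-thiouridine, UV light crosslinks the labeled RNA to the bound protein, and the crosslinked fragments are ligated to an infrared adapter, sequenced and grouped into clusters.

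The cells were HCT116, a human colorectal carcinoma line of the genotype Tet-OsTIR1-PURO, which conditionally expresses a plant F-box protein. All 6 samples came from this line, received 100 µM 4-thiouridine for 15 h and were irradiated at 365 nm. Endogenous IGF2BP3, a cytoplasmic protein that binds mRNA and is known for stabilizing transcripts in tumour cells, was precipitated in 5 libraries, and a control IgG was used in the sixth. RNase I was applied at 0.05/0.05, 0.1/0.025 or 0.05/0.025 U/µL (in-lysate/on-bead) and RNase T1 at 1/1 or 0.25/0.25 U/µL, and the IgG library received RNase I at 0.1/0.025 U/µL. These are the concentrations of the labels, and a passage of the methods gives a lower in-lysate concentration of RNase I beside 0.025 U/µL on beads. The antibody also partly recognized the paralog IGF2BP2, and RNA bound by either protein cannot be told apart. Electroelution was used to recover the fragments of RNase I 0.05/0.05 and RNase T1 1/1, while for the remaining 3 IGF2BP3 libraries the gel was crushed, so that extraction and RNase concentration cannot be told apart between the RNase T1 libraries, or between RNase I 0.05/0.05 and the other RNase I libraries. RNase I 0.1/0.025 and 0.05/0.025 shared the extraction. Each condition was a single library, so no test between conditions was possible, and the 95% intervals given below cover counting error only.

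Glycolysis splits glucose into pyruvate in the cytosol, and in many tumour cells most of the pyruvate is then reduced to lactate. SLC2A1 (GLUT1) carries glucose across the plasma membrane and HK2 traps it as glucose 6-phosphate. ALDOA cleaves the hexose bisphosphate, TPI1 interconverts the resulting triose phosphates, GAPDH oxidizes and phosphorylates glyceraldehyde 3-phosphate, PGK1 makes the first ATP of the payoff phase, PGAM1 and ENO1 rearrange and dehydrate the product, PKM makes pyruvate and a further ATP, and LDHA reduces pyruvate to lactate. Several of these mRNAs are among the most abundant of proliferating cells. No RNA abundance was measured with the clusters, so a high read number can reflect more mRNA, more binding or both.

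Where the clusters of all 5 IGF2BP3 libraries lay on top of each other, the sequence itself could be read. There were 38 such stretches, on 8 of the 10 mRNAs, and they added up to 1594 nt, of which 1405 nt lay in 3′UTRs and 166 nt in coding sequence. The central 30 nt of the longest stretch of each mRNA, read 5′ to 3′ from GRCh38 (which the cluster sequences match at every position), are shown because they are the positions recovered with either enzyme. Capitals mark tetramers searched on the mRNA strand only. These were CAGU, alongside it CAUU, and further CAUA along with the similar CAUC.

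LDHA, 3′UTR, chr11:18407700-18407729, plus strand: gugCAUAauucuuccaaaggaucuuauuuu
PGAM1, 3′UTR, chr10:97433321-97433350, plus strand: cacugauuucugaaucauguucuaguugcu
GAPDH, 3′UTR, chr12:6538233-6538262, plus strand: gagucccugccacacuCAGUcccccaccac
ENO1, 3′UTR, chr1:8861274-8861303, minus strand: ugucagcucaggcagcucgaggcccccgac
SLC2A1, 3′UTR, chr1:42926516-42926545, minus strand: caggcucCAUUaggauuugccccuucccau
PGK1, 3′UTR, chrX:78125986-78126015, plus strand: cagcuCAUCuucacugcacccuggauuugc
PKM, 3′UTR, chr15:72199097-72199126, minus strand: uccacccuccaccuucCAUUuucccccacu
TPI1, 3′UTR, chr12:6870509-6870538, plus strand: aacuguaucuuccuuuacuguuuauaucuu

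Of these 8 windows, 5 held at least 1 of the 4 tetramers, and LDHA, GAPDH, SLC2A1, PGK1 and PKM were those that did. Among non-overlapping 30-nt windows laid end to end over canonical 3′UTRs of protein-coding genes, 37.9% held at least 1. The paper reports CAGU as the top motif of these libraries with RNase I and CAUU with RNase T1. Setting cluster windows beside those of all 3′UTRs is therefore no independent test of these tetramers. The coding sequence had stretches covered in all 5 libraries on *GAPDH* and *SLC2A1* alone among the 10 mRNAs, and these are printed as the coding counterpart.

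GAPDH, coding, chr12:6536702-6536731, plus strand: gauuccacccauggcaaauuccauggcacc
GAPDH, coding, chr12:6537670-6537698, plus strand: gaaCAUCAUCccugccucuacuggcgcug
GAPDH, coding, chr12:6537760-6537789, plus strand: uguccccacugccaacguguCAGUggugga
GAPDH, coding, chr12:6537920-6537949, plus strand: agcgacacccacuccuccaccuuugacgcu
SLC2A1, coding, chr1:42927169-42927190, minus strand: uucuuCAUCuucaccuacuuca

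A tetramer was present in 3 of these 5 coding stretches, in the *GAPDH* stretch starting at 6537670 as overlapping CAUC copies. Of non-overlapping 30-nt windows laid over coding sequence in the same way, 35% held at least 1, while the stretches include shorter ones of 29 and 22 nt. *HK2* and *ALDOA* had no nucleotide covered in all 5 libraries. The longest stretch of each that was covered in the 3 RNase I libraries is given instead.

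ALDOA, 3′UTR, chr16:30070320-30070349, plus strand: cuucccucgugaCAGUgguguguggugucg
HK2, 3′UTR, chr2:74891252-74891269, plus strand: cuacaggauggggacacu

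Over whole clusters, the members carried fewer CAUU and CAUA than the average exonic cluster, and more CAUC, though by little with RNase T1. CAUU occurred 0.569 to 0.615 times per 100 nt in the members' clusters of the 5 libraries and 0.753 to 1.15 times per 100 nt in the clusters of all protein-coding genes. CAUA occurred 0.154 to 0.382 times per 100 nt in the members and 0.389 to 0.613 in all genes, and was lower in the members in every library. CAUC occurred 0.713 to 0.753 times per 100 nt in the members and 0.536 to 0.689 in all genes. With RNase T1 1/1 and 0.25/0.25 it was 0.713 and 0.716 against 0.689 and 0.653, in member clusters of only 4068 and 2094 nt. No intervals were computed for these rates, and the libraries share positions on the same mRNAs, so their values are not independent. CAGU was less frequent in the members than in all genes with RNase I, at 0.452 to 0.505 against 0.625 to 0.667 per 100 nt, and more frequent with RNase T1, at 0.467 and 0.716 against 0.338 and 0.481. The members' clusters were also richer in G and C, with 48.2% to 50.6% of bases against 38.2% to 43.8%. The part of base composition in the tetramer differences was not tested.

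IGF2BP3 clusters were found on all 10 mRNAs. The target criterion of the study asks for a cluster above 10 CPM that also exceeds 0.5 T-to-C conversions per read, T-to-C conversion being the mark that a crosslinked 4-thiouridine leaves in the read. CPM was computed here per 1000000 cluster reads of the library, a denominator that the methods do not state. All genes are here the 9353 protein-coding genes with an exonic cluster in an IGF2BP3 library. By the target criterion 10 of 10 members were targets with RNase I 0.05/0.05 (46.9% of all genes) and 10 with RNase I 0.1/0.025 (45.6%). With RNase I 0.05/0.025 there were 9 (47.1% of all genes), with RNase T1 1/1 9 (42.1%) and with RNase T1 0.25/0.25 7 (29.3%). *SLC2A1*, *TPI1*, *GAPDH*, *PGAM1*, *ENO1*, *PKM* and *LDHA* were called in all 5 libraries, as were 21.2% of all genes. *HK2* was not called with RNase I 0.05/0.025 or RNase T1 0.25/0.25, *ALDOA* was not called with either RNase T1 library, and *PGK1* was not called with RNase T1 0.25/0.25. The criterion of 10 CPM amounts to 23.6 reads with RNase I 0.05/0.05 and to 1.82 reads with RNase T1 0.25/0.25, where the smallest listed cluster of any gene has 2 reads, so that it did not act alike in the libraries.

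Together the members held 7724 of the 2362467 cluster reads with RNase I 0.05/0.05 (3270 CPM, 95% Poisson interval 3200 to 3340), 3203 of 803490 with RNase I 0.1/0.025 (3990 CPM, 3850 to 4130) and 3034 of 670712 with RNase I 0.05/0.025 (4520 CPM, 4360 to 4690). They held 1952 of 1157194 with RNase T1 1/1 (1690 CPM, 1610 to 1760) and 732 of 182448 with RNase T1 0.25/0.25 (4010 CPM, 3730 to 4310). The RNase T1 1/1 library thus stood apart, and its sum was 0.374 to 0.517 times that of the other libraries. For 8 of the 10 members, all but *HK2* and *PGK1*, its interval lay below those of all 3 RNase I libraries. The 24 other genes of the pathway listed for comparison did not show this lower sum, with 1780 CPM (1710 to 1860) in that library and 1790 to 1960 CPM in the other 4. Over all protein-coding genes the clusters had 38.2% G and C with RNase T1 1/1, 39.1% with RNase T1 0.25/0.25 and 42.4% to 43.8% with RNase I. The part of base composition in the members' lower sum with RNase T1 1/1 was not tested.

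Per kb of mRNA, the members spanned more than an order of magnitude within each library. With RNase I 0.05/0.05, *GAPDH* led with 365 CPM per kb (its interval did not reach that of the next gene), followed by *LDHA* at 286, *ENO1* at 269 and *PGAM1* at 259, of which neighbouring intervals overlapped. *PKM* had 178 CPM per kb, *TPI1* 99.9, *SLC2A1* 75.4, *ALDOA* 63.2, *PGK1* 47.6 and *HK2* 14.3, and among these only the intervals of *SLC2A1* and *ALDOA* overlapped. In each of the 5 libraries the highest 3 places fell to *GAPDH*, *LDHA*, *PGAM1* or *ENO1*. *HK2* was last in all 3 RNase I libraries, *ALDOA* was last in both RNase T1 libraries, and *HK2* had no cluster with RNase T1 0.25/0.25. Among all protein-coding genes with a cluster, ranked by CPM per kb with RNase I 0.05/0.05, *GAPDH* was 83rd of 8760 and *HK2* 3636th.

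**Figure D1:**
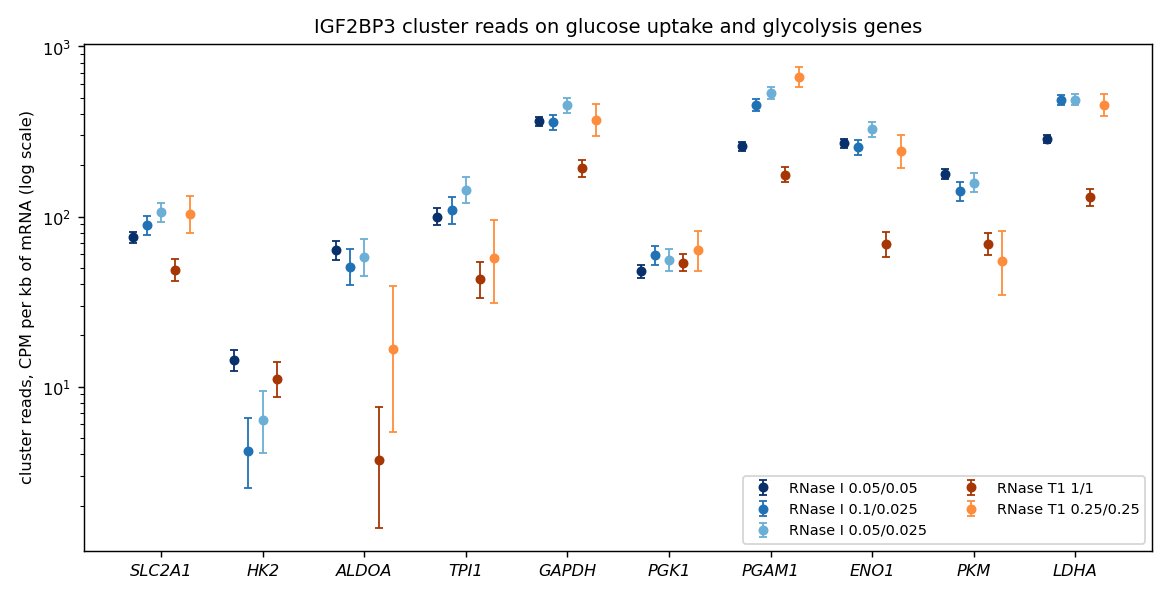
Cluster reads of each gene in CPM per kb of its canonical mRNA (log axis) for the 5 IGF2BP3 libraries, with dots for single libraries and bars for 95% Poisson intervals of the read number. The dots of RNase T1 1/1 lie below those of the RNase I libraries for 8 genes, *HK2* and *PGK1* being the exceptions, and *HK2* has no dot for RNase T1 0.25/0.25.

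The IgG library had no cluster on any member. It held 25 clusters with 324 reads in all, and at the members' share in the IGF2BP3 library of the same RNase treatment, 0.399% of reads, 324 reads would contain 1.29, so its depth cannot show whether the background differs on these genes. Of the markers for epithelial cells, *EPCAM* had clusters in all 5 IGF2BP3 libraries (27.4 to 68.6 CPM), *KRT8* and *KRT18* in 4 each and *CDH1* also in 4. *PTPRC*, *CD3E*, *COL1A1* and *ALB*, markers of blood, stromal and liver cells, had none in any library. A cluster needs binding as well as expression, so an absent marker says little.

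The reads lay mainly in 3′UTRs. When a cluster overlapping several features of the canonical transcript was given to the 3′UTR first and then to the coding sequence, the 3′UTR held 82.6% (95% Wilson interval 81.8% to 83.5%), 88.5% (87.3% to 89.5%) and 89% (87.8% to 90%) of the members' reads with RNase I 0.05/0.05, 0.1/0.025 and 0.05/0.025. In the RNase T1 libraries (1/1 and 0.25/0.25) it held 83.4% (81.6% to 84.9%) and 92.1% (89.9% to 93.8%). Over all protein-coding genes the shares in the same order of libraries were 78.9%, 80.7%, 79.4%, 85.3% and 85.7%. With this assignment and by pooled reads, the members stood above all genes in 4 libraries and below them with RNase T1 1/1. The shares over all genes are given for this assignment only, so the comparison may differ under another. By the median over genes the order differed, with 95.3%, 97.5%, 97.5%, 94.2% and 100% for the members and 93.8%, 100%, 100%, 100% and 100% for all genes with a cluster. The coding sequence took 16.2%, 10.5%, 9.99%, 16% and 7.1% of the members' reads, and the 5′UTR between 0.666% and 1.13%.

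The pooled share hid different patterns of the single mRNAs. More than 50% of reads lay in the 3′UTR in every library with a cluster for 8 members, and for *HK2*, *TPI1* and *PGAM1* all reads did. *GAPDH* and *ALDOA*, whose 3′UTRs are the shortest of the 10 at 204 and 205 nt, carried large coding shares. Counted by the length of each feature, with the reads of a cluster spread evenly over its nucleotides, the 3′UTR had more CPM per kb than the coding sequence in 47 of the 49 combinations of gene and library with a cluster. The exceptions were *ALDOA* in both RNase T1 libraries, where a single cluster of 7 or 5 reads was present. All protein-coding genes, pooled and with clusters given to the 3′UTR first, had 33 to 35.7 CPM per kb of 3′UTR. Their coding sequence had 5.96 to 9.69 CPM per kb, so a denser 3′UTR was not particular to the members. Reads across splice junctions were not aligned, and the members' 3′UTRs are free of junctions.

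**Figure D2:**
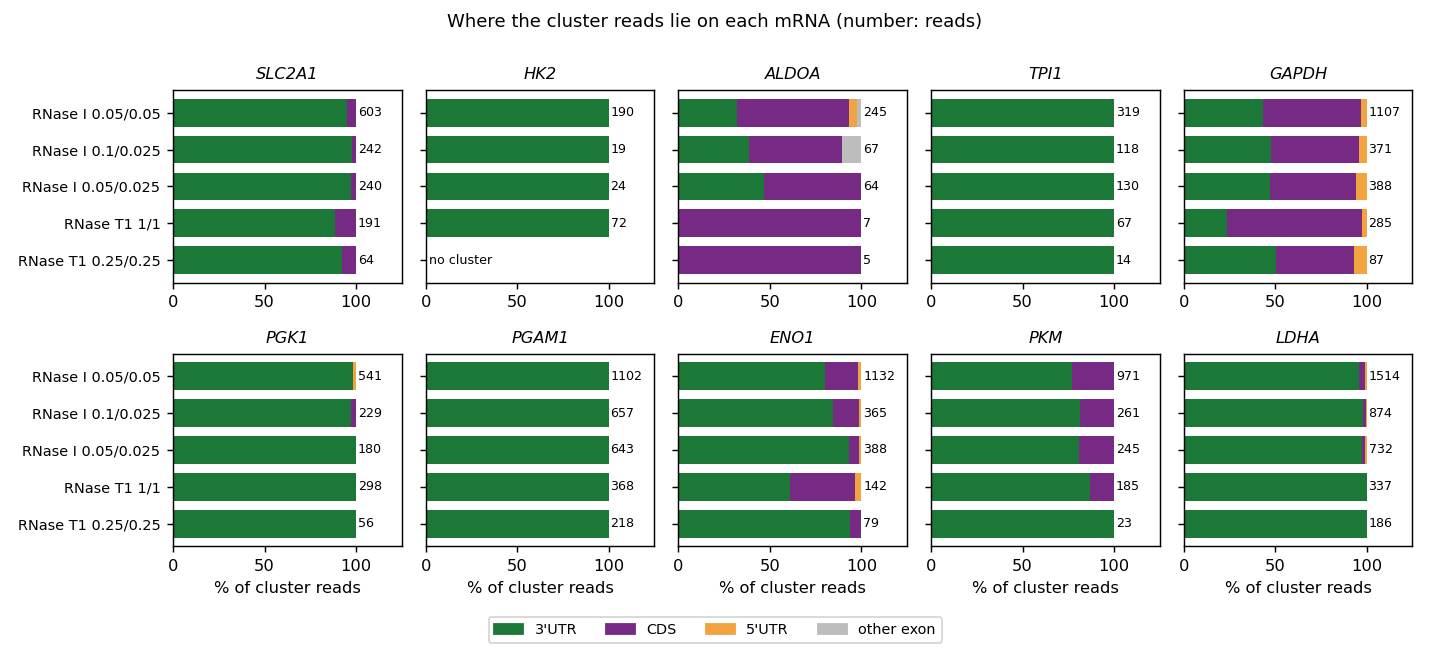
Share of each gene's cluster reads (%) given to 3′UTR, coding sequence (CDS), 5′UTR and other exons in each IGF2BP3 library, with the number of reads at the right of each bar. *GAPDH* and *ALDOA* show large coding shares and *HK2*, *TPI1* and *PGAM1* none.

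Clusters that spanned the stop codon decided part of this assignment. The longest clusters came from RNase I, up to 573 nt with 0.05/0.05, 424 nt with 0.1/0.025 and 435 nt with 0.05/0.025, against 211 and 181 nt with RNase T1 1/1 and 0.25/0.25. Stop codons were spanned by 9, 5 and 3 clusters with 1972, 457 and 391 reads in the RNase I libraries, in the order of the shares above, and by 1 cluster of 64 reads with RNase T1 1/1. Given to the coding sequence first, *ENO1* had 98.4% to 98.7% of reads there in the RNase I libraries but 35.2% and 6.33% with RNase T1. In the RNase I 0.05/0.05 library the same order gave coding shares of 95.3% to *TPI1* and 79.5% to *PGK1*, against 0% for both in the 3′UTR-first order. The pooled 3′UTR share of the members was then 57.1%, 74.2% and 76.1% in the 3 RNase I libraries. In the RNase T1 libraries it was 80.1% for 1/1 and stayed at 92.1% for 0.25/0.25.

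**Figure D3:**
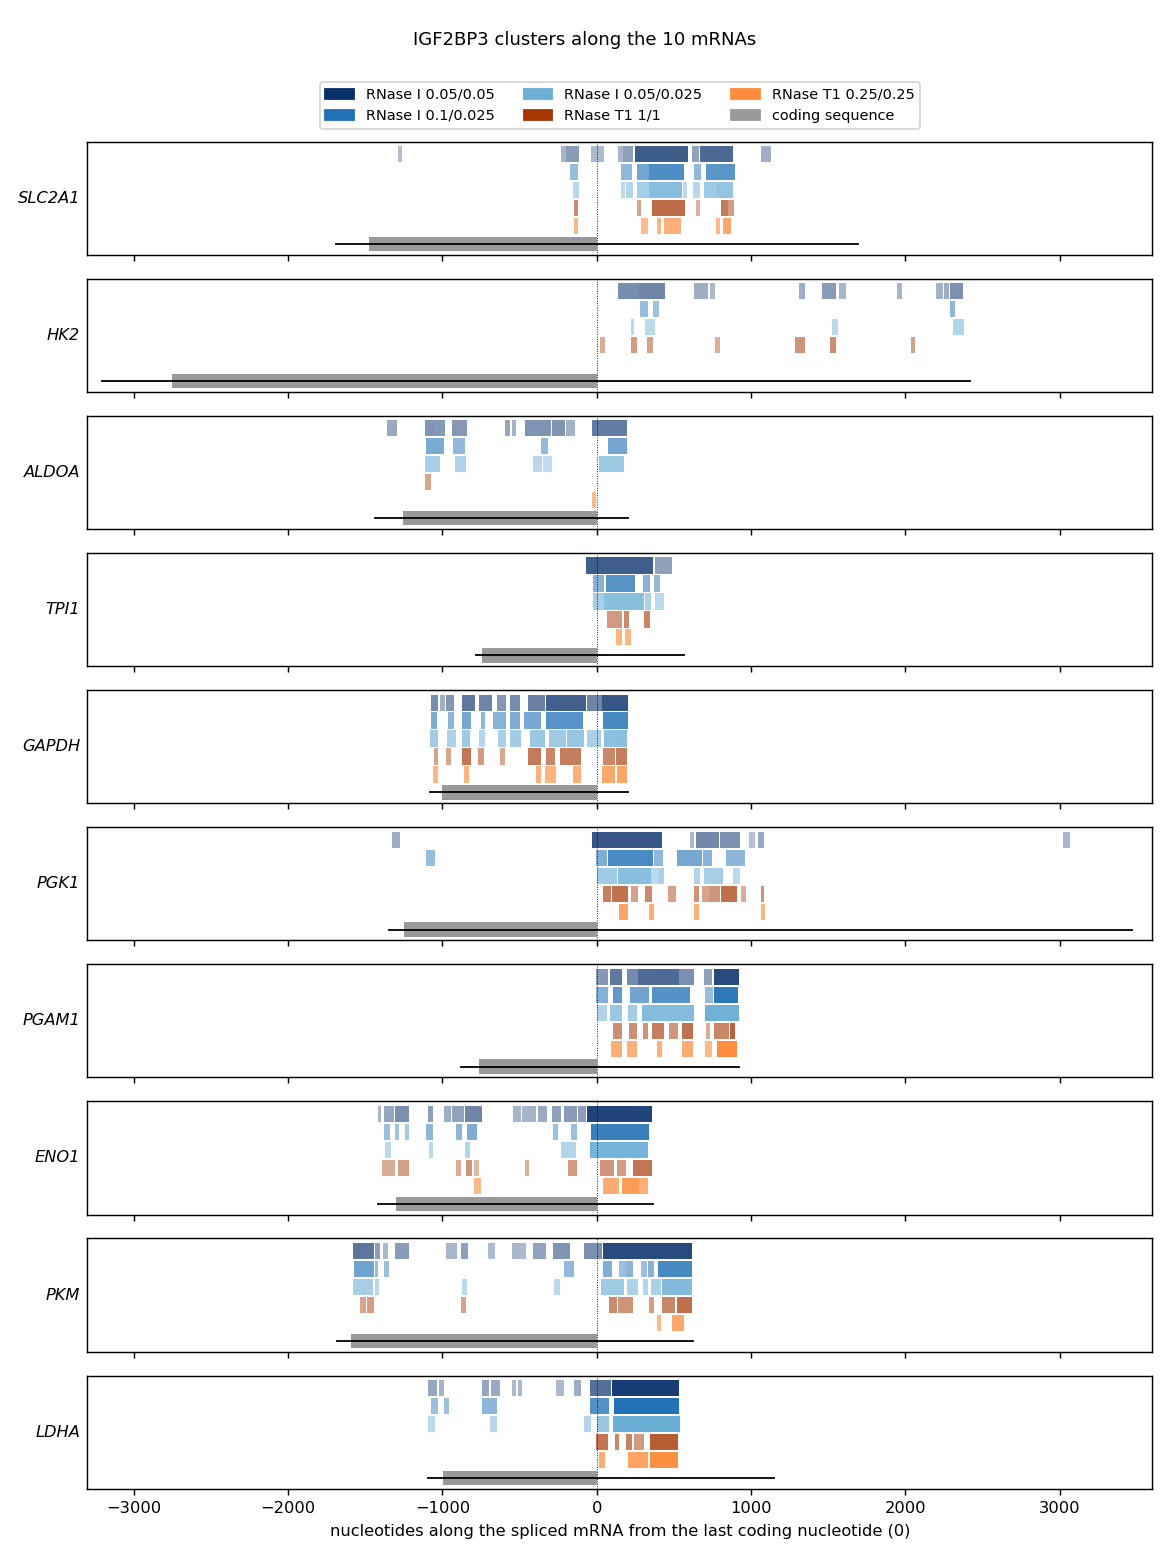
Clusters along the spliced canonical mRNA of each gene, in nucleotides from the last coding nucleotide (0), 1 row per IGF2BP3 library and darker bars for more CPM; the line is the mRNA and the grey box the coding sequence. The longest clusters come from RNase I, of which 9, 5 and 3 cross the stop codon, the longest RNase T1 cluster has 211 nt, and *GAPDH* has clusters along the whole coding sequence.

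The enzymes left their mark on the cluster ends. RNase T1 cuts after G, and 67 of the members' 70 clusters with RNase T1 1/1 (95.7%) and 31 of 36 with 0.25/0.25 (86.1%) ended in G. With RNase I the shares were 19.4% (19 of 98 clusters), 17.2% (11 of 64) and 13.6% (9 of 66). The median cluster was 65, 58 and 65 nt long with RNase I and 43.5 and 45.5 nt with RNase T1. Merged over libraries, the members' clusters formed 94 sites, of which 19 were present in all 5 libraries and 42 in a single library. Sites of both enzymes numbered 36, those of RNase I alone 54 and those of RNase T1 alone 4. Of the 54, 38 came from a single library. RNase I had more libraries, among them the deepest, and sites were not counted over all genes, so these numbers do not compare the enzymes. The 19 sites of all 5 libraries, 13 assigned to 3′UTRs, 5 to coding sequence and 1 to a 5′UTR, held 88.4% of the members' reads. A site counted as held when any nucleotide was shared, and when a library had to cover at least 50% of the merged site, 6 were held by all 5.

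*SLC2A1*, the glucose transporter, is on the minus strand of chromosome 1 (42925353 to 42958893). It had 603, 242 and 240 reads in the RNase I libraries (0.05/0.05, 0.1/0.025 and 0.05/0.025) and 191 and 64 in the RNase T1 libraries (1/1 and 0.25/0.25), an order kept for the genes that follow. These were 255, 301, 358, 165 and 351 CPM. The lowest, with RNase T1 1/1, had an interval of 142 to 190 CPM and the highest, with RNase I 0.05/0.025, of 314 to 406. The 3′UTR held 95%, 97.5%, 97.5%, 88.5% and 92.2% of the reads, concentrated in a pair of sites at chr1:42926455-42926797 and chr1:42926152-42926430, both present in all 5 libraries. The first of them held 757 reads over the libraries and the second 460. A further site of all 5 libraries lay in the coding sequence at chr1:42927160-42927243, near its 3′ end, and held 59 reads in all, 22 of them with RNase T1 1/1. No 30-nt window of the *SLC2A1* coding sequence or 3′UTR occurred elsewhere in the genome.

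*HK2*, the hexokinase of many tumours, was the most weakly covered member in the RNase I libraries. It had 190, 19, 24 and 72 reads in the first 4 libraries (80.4, 23.6, 35.8 and 62.2 CPM) and no cluster with RNase T1 0.25/0.25, where the smallest cluster listed for any gene has 2 reads. On the members the smallest cluster of that library had 5 reads (27.4 CPM), while the strongest *HK2* cluster of any library had 22.4 CPM. The part of depth in the missing *HK2* cluster was not tested. The interval with RNase I 0.05/0.05, 69.4 to 92.7 CPM, did not overlap those with 0.1/0.025 (14.2 to 36.9) and 0.05/0.025 (22.9 to 53.2). All reads lay in the 2421-nt 3′UTR, scattered over 14 sites of which 9 came from a single library. The site with most reads, chr2:74891212-74891382, held 76 reads over 4 libraries. None of the 2751 coding nucleotides was covered in any library, and 33.5% of the 30-nt windows of the coding sequence occur elsewhere in the genome.

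*ALDOA*, the aldolase of muscle and most tumours, had 245, 67, 64, 7 and 5 reads (104, 83.4, 95.4, 6.05 and 27.4 CPM). The RNase I libraries differed by at most 1.25-fold and the intervals of RNase T1 1/1 (2.43 to 12.5 CPM) and 0.25/0.25 (8.9 to 64) lay below all of theirs. Coding clusters took 61.2%, 50.7% and 53.1% of the RNase I reads and the whole of the 7 and 5 RNase T1 reads. The 3′UTR was covered over 194 of its 205 nt with RNase I 0.05/0.05 and not at all with RNase T1. In the RNase I libraries the 3′UTR nonetheless had 2.56 to 5.47 times the CPM per kb of the coding sequence. Nearly all *ALDOA* clusters also overlapped exons of ENSG00000285043, an annotated protein-coding gene that shares these exons, 10 of 11 clusters with RNase I 0.05/0.05 and every cluster of the other libraries, so the reads of both cannot be told apart.

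*TPI1* had 319, 118, 130, 67 and 14 reads (135, 147, 194, 57.9 and 76.7 CPM), all in clusters that touched its 568-nt 3′UTR. The interval was 162 to 230 CPM with RNase I 0.05/0.025, above those with RNase I 0.05/0.05 (121 to 151) and RNase T1 1/1 (44.9 to 73.5). With RNase I 0.05/0.05 a single 437-nt cluster, chr12:6870310-6870746, held 304 reads and reached 71 nt into the coding sequence. The RNase T1 clusters of the same region were short and stayed outside the coding sequence. Only 43 nt at chr12:6870503-6870545 and 28 nt at chr12:6870562-6870589 were covered in all 5 libraries. Of the coding windows, 65.1% occur elsewhere in the genome, and beyond the cluster at the stop codon the coding sequence carried no cluster.

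*GAPDH*, best known as a reference gene for mRNA abundance, had 1107, 371, 388, 285 and 87 reads (469, 462, 578, 246 and 477 CPM). RNase T1 1/1 was the lowest (interval 219 to 277 CPM) and RNase I 0.05/0.025 the highest (522 to 639). It was the member with the broadest coding coverage, at 801, 610, 662, 437 and 177 of 1005 coding nucleotides. Reads in coding clusters made up 53.1%, 47.7%, 46.9%, 73.3% and 42.5% of its total, whereas over all protein-coding genes the coding share was 11.8% to 18.7%. Even so, its 204-nt 3′UTR had 1.6 to 5.86 times the CPM per kb of its coding sequence.

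The site at the end of the *GAPDH* mRNA, chr12:6538200-6538370, was found in all 5 libraries and held 888 reads. The strongest coding site, chr12:6537731-6537992, held 528 reads, and another at chr12:6536685-6536771, early in the coding sequence, held 215. The cluster of RNase T1 1/1 with most *GAPDH* reads was at this early site (63 reads), whereas in the other 4 libraries it was in the 3′UTR. A site of 89 reads in the 5′UTR, chr12:6534515-6534571, was also present in all 5 libraries, the only 5′UTR site of the 10 genes with that recurrence. Of the coding windows of *GAPDH*, 64.4% have an exact copy elsewhere, with up to 11 matches, and the annotation lists 65 pseudogenes named after it.

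For *PGK1*, as for *HK2*, the RNase T1 1/1 interval did not lie below those of all RNase I libraries. It had 541, 229, 180, 298 and 56 reads (229, 285, 268, 258 and 307 CPM), and the interval with RNase T1 1/1, 229 to 288 CPM, overlapped that of every other library. Clusters covered 847, 769, 633, 600 and 155 of the 3468 nt of its 3′UTR, the longest of the 10, and apart from 1 cluster of 6 reads they lay in the part next to the stop codon. The main site, chrX:78125794-78126262, held 946 reads in 5 libraries and a second, chrX:78126345-78126796, held 291. In the coding sequence, a single cluster of 6 reads with RNase I 0.1/0.025 stood apart from the stop codon. Its conversions per read were 0.575, 0.677, 0.567, 0.5 and 0.411, and no cluster passed the criterion in the last library.

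*PGAM1* had 1102, 657, 643, 368 and 218 reads (466, 818, 959, 318 and 1190 CPM). The interval of RNase T1 0.25/0.25 (1040 to 1360 CPM) lay above those of RNase I 0.05/0.05 (439 to 495) and RNase T1 1/1 (286 to 352). The reads lay in its 923-nt 3′UTR, 796, 701, 758, 513 and 418 nt of which were covered. At the 3′ end of the mRNA a site at chr10:97433218-97433441 held 2004 reads, and its strongest cluster took 65.6%, 70.2%, 69.5%, 39.7% and 75.7% of the gene's reads. Of the coding sequence, 4 and 3 nt next to the stop codon were reached with RNase I 0.05/0.05 and 0.1/0.025 and none in the other libraries.

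The *PGAM1* mRNA is also the member with the largest share of copied windows. Every 30-nt window of its coding sequence (646 of 646) and 93.7% of those of its 3′UTR have an exact match elsewhere in GRCh38, the median window of the coding sequence matching 4 places and that of the 3′UTR 3. Clusters whose whole sequence has another match held 88.9%, 77.5%, 74%, 73.9% and 87.6% of its reads. The 723-read cluster at the end of its 3′UTR has an identical sequence on chromosome 12, where the same library lists 723 reads as well. The *PGAM1* values are therefore sums over places in the genome that these reads cannot separate.

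*ENO1*, the enolase of most tissues, had 1132, 365, 388, 142 and 79 reads (479, 454, 578, 123 and 433 CPM). The RNase T1 1/1 interval (103 to 145 CPM) was far below the others, the nearest being 343 to 540 with RNase T1 0.25/0.25. The 363-nt 3′UTR was covered almost throughout, over 360, 335, 334, 278 and 265 nt. The site there, chr1:8861003-8861429, held 1741 reads and was a single cluster in each RNase I library, of 909, 309 and 362 reads, and several clusters in the RNase T1 libraries. Coding clusters apart from it took 18.1%, 14%, 5.41%, 35.2% and 6.33% of reads. The merged coding site chr1:8866388-8866496, with 100 reads, had a cluster in all 5 libraries, but no coding nucleotide was covered in all 5.

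*PKM*, the pyruvate kinase whose M2 form prevails in tumour cells, had 971, 261, 245, 185 and 23 reads (411, 325, 365, 160 and 126 CPM). The intervals of RNase T1 1/1 (138 to 185 CPM) and 0.25/0.25 (79.9 to 189) overlapped each other and lay below those of the RNase I libraries. Its 3′UTR held 77.2%, 81.6%, 80.8%, 87% and 100% of the reads, and its main site, chr15:72199038-72199736, held 1345 reads in 5 libraries. A coding site at chr15:72218947-72219084, in the second exon of the canonical transcript, held 178 reads in 4 libraries. Of the mutually exclusive exons of the M2 and M1 forms, both 167 nt long, the former (chr15:72202454-72202620) had 1 cluster of 14 reads with RNase I 0.05/0.05 and the latter (chr15:72203022-72203188) had none in any library, which is too few reads to compare the forms.

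*LDHA*, which makes lactate, had 1514, 874, 732, 337 and 186 reads (641, 1090, 1090, 291 and 1020 CPM). The interval was 609 to 674 CPM with RNase I 0.05/0.05 and 261 to 324 with RNase T1 1/1, both apart from the other 3 libraries, whose intervals overlapped. The 3′UTR held 95.6%, 97.8%, 97.5%, 100% and 100% of its reads. A site of 442 nt at chr11:18407378-18407819, in the first part of the 1147-nt 3′UTR, held 3178 reads and was the site with most reads of the 94. Within it lay the longest stretch covered in all 5 libraries on any member, 181 nt at chr11:18407625-18407805. A cluster with nearly these ends was the strongest *LDHA* cluster in both RNase T1 libraries, with 200 and 144 reads. Coding clusters held at most 3.57% of the reads.

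T-to-C conversions on the members were close to those of other genes. All members together had 0.659, 0.665, 0.621, 0.566 and 0.6 conversions per read, and the reads of all protein-coding genes together had 0.638, 0.651, 0.608, 0.511 and 0.551. The median over the single genes with a cluster was 0.641, 0.659, 0.622, 0.534 and 0.575. Of the 49 combinations of gene and library, the 95% Poisson interval of the conversions held the library's median in 43, lay above it in 5 and below it in 1. The 5 above it were *GAPDH* with RNase I 0.05/0.05 (0.706, interval 0.657 to 0.757) and RNase T1 1/1 (0.702, 0.608 to 0.806) and *PGAM1* with RNase I 0.05/0.05 (0.705, 0.656 to 0.756), RNase T1 1/1 (0.617, 0.539 to 0.703) and RNase T1 0.25/0.25 (0.688, 0.582 to 0.807). *LDHA* with RNase T1 1/1 was the combination below it (0.454, 0.385 to 0.532). For the other 7 members the interval held the median in every library with a cluster.

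**Figure D4:**
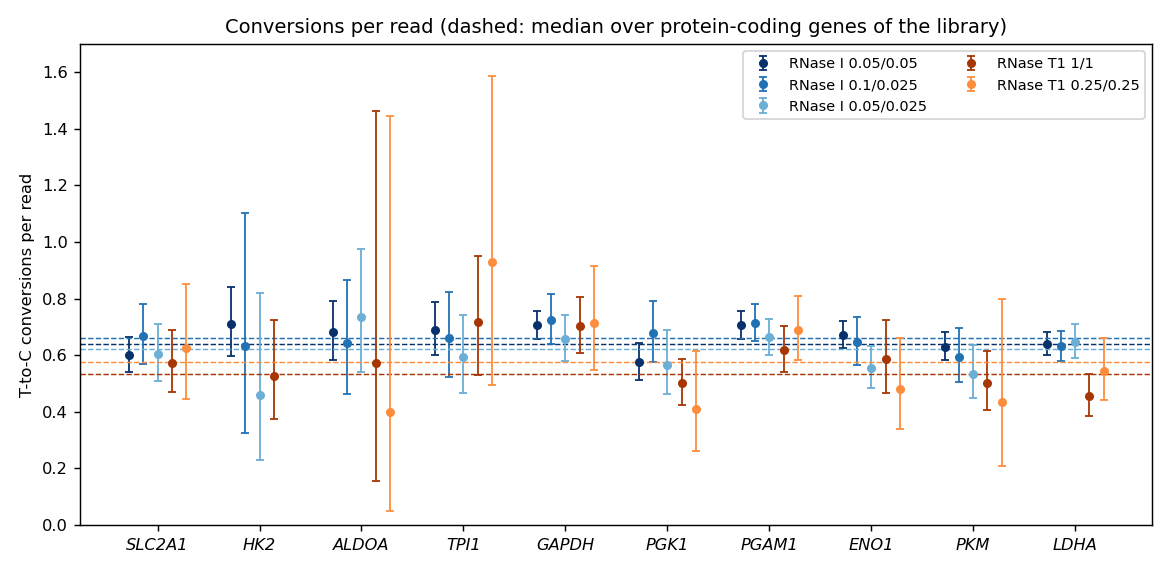
T-to-C conversions per read of each gene in each IGF2BP3 library, with 95% Poisson intervals of the number of conversions; dashed lines give the median over all protein-coding genes with a cluster in the library of that colour. Of 49 intervals, 43 hold their library's line.

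Among the 24 other genes of glucose metabolism and its control, 7 were targets in all 5 libraries, 7 in some, 5 had clusters but were never called, and 5 had no exonic cluster in any library. By library, 11, 12, 10, 12 and 7 of the 24 were called. The shares over all genes were 46.9%, 45.6%, 47.1%, 42.1% and 29.3%. Those shares count only genes with an exonic cluster, which 5 of the 24 lack, so the numbers are not on the same footing. The 7 were *GPI*, which isomerizes glucose 6-phosphate, the phosphofructokinase *PFKM*, the lactate dehydrogenase subunit *LDHB*, the fructose bisphosphatase *TIGAR*, the lactate transporter *SLC16A1*, the pyruvate dehydrogenase subunit *PDHA1* and the hypoxia factor *HIF1A*. *GPI* had 351, 458, 494, 115 and 252 CPM and *LDHB* 218, 175, 332, 57 and 186, lowest with RNase T1 1/1 as for most members. *HIF1A* had 164, 255, 224, 349 and 406 CPM and *SLC16A1* 202, 169, 154, 332 and 329, both higher in the RNase T1 libraries. No exonic cluster was found on the phosphofructokinases *PFKL* and *PFKP*, the regulators *PFKFB2* and *PFKFB4*, or *BPGM*, which makes 2,3-bisphosphoglycerate. The neuronal-type glucose transporter *SLC2A3* had at most 8 reads, in contrast to 64 to 603 for *SLC2A1*.

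Many of these mRNAs have processed copies, which the deposited clusters show directly. Of the 334 member clusters, 43 had a sequence that occurs exactly at another place in the genome, in 60 pairs of cluster and copy. The copy had cluster reads of the same library in 58 of the 60 pairs, and in 51 the reads there were within 10% of those of the member cluster. In 19 pairs the interval, the reads and the conversions were all equal, so the same reads had been listed at more than 1 place. Reads of member clusters with a single match came to 2840, 3280, 3770, 1360 and 2860 CPM, lowest with RNase T1 1/1. The match was sought for the whole cluster, so shorter reads within a cluster of single match can still match elsewhere. A 335-nt *PGAM1* cluster of RNase I 0.05/0.025 had 1 match, and an 80-nt RNase T1 1/1 cluster within it had 2. This filter therefore did not act alike on long and short clusters, and it cannot show how copies bear on the lower RNase T1 1/1 sum.

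Coverage of the coding sequence and copy number did not run together in a simple order over the 10 genes. *PGAM1*, with all coding windows copied, was covered over at most 4 coding nucleotides and *HK2*, with 33.5% copied, over none, whereas *GAPDH* with 64.4% copied had the highest coverage (17.6% to 79.7% of coding nucleotides). *SLC2A1*, with none copied, was covered over 1.69% to 12.5%. The part of copies in the missing coding coverage of *PGAM1*, *HK2* and *TPI1* was not tested.

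**Figure D5:**
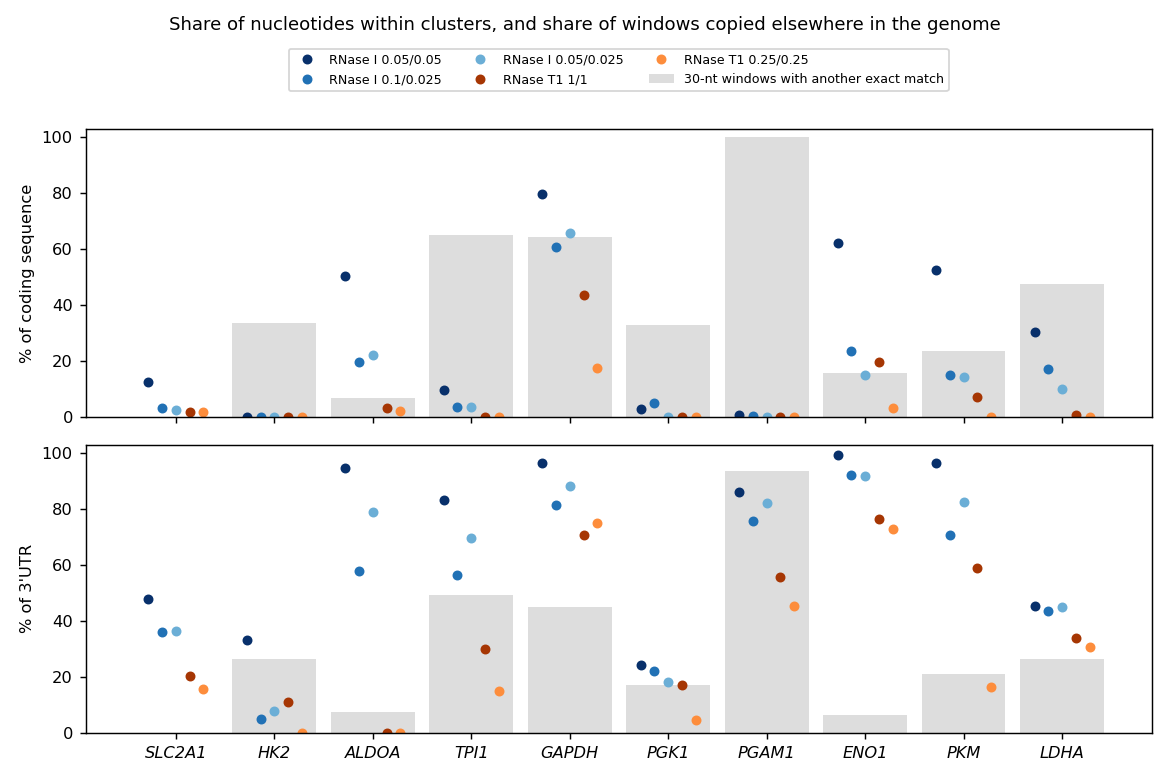
Percent of the coding sequence (top) and 3′UTR (bottom) of each gene that lies in clusters, as dots for the 5 IGF2BP3 libraries, over grey bars for the percent of 30-nt windows with another exact match in GRCh38. The coding sequence of *PGAM1* is fully copied and hardly covered, while that of *GAPDH*, 64.4% copied, is covered up to 79.7%.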

How the data were processed

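IR-PAR-CLIP clusters of 5 IGF2BP3 libraries and 1 IgG library from HCT116 cells were used, 1 library per condition. The authors deduplicated reads with UMI-tools 1.1.1, kept 18 to 45 nt with Trimmomatic 0.30, aligned them with Bowtie 0.12.7 to GRCh38.p13 allowing 3 mismatches, and called clusters in each library with PARalyzer. Bowtie of this version does not align reads across splice junctions. How reads with several matches were treated is not given in the sources used here. The deposited values are counts of reads and of conversion events per cluster, not normalized. The authors' deposited mode score, a fraction, was not used.

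Clusters were assigned to exons of GENCODE release 44 and to features of the canonical transcript, in which the stop codon belongs to the 3′UTR. CPM is relative to the sum of cluster reads, 182448 to 2362467 in the IGF2BP3 libraries, which is not the library size. Intervals are 95% Wilson for shares and exact Poisson for read and conversion numbers. Sequence copies were exact matches of 30-nt windows or whole clusters on either strand. The software was scipy 1.17.1, numba 0.67.0, pandas 2.3.3, numpy 2.4.6 and matplotlib 3.10.9 under Python 3.11.15, and assignment was tested on simulated data. The member genes, the other pathway genes, markers and settings were chosen with earlier results of these data known. The named genes were all members, the other pathway genes called in all 5 libraries or without an exonic cluster, and genes that share clusters with a member, and *SLC2A3* was added after its values were seen. Alternatives changed the CPM and conversion criteria, the exon overlap, the feature order and annotation, the CPM denominator, the treatment of copied clusters and the definition of a shared site.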

Additional observations from a re-analysis of the deposited data

Results flagged for a closer look

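Clusters outside the member genes whose whole sequence also lies in a member mRNA are no part of the comparisons above, and the IgG library had none. They held 2238 reads in 64 clusters with RNase I 0.05/0.05, 1602 in 49 with RNase I 0.1/0.025, 1082 in 40 with RNase I 0.05/0.025, 909 in 38 with RNase T1 1/1 and 448 in 15 with RNase T1 0.25/0.25. Sequence of *PGAM1* made up most of them, with 1216, 1181, 724, 533 and 383 reads, which is 1.1, 1.8, 1.13, 1.45 and 1.76 times the reads at *PGAM1* itself. Sequence of *GAPDH* lay elsewhere in 13 clusters of 224 reads with RNase I 0.05/0.05, and *SLC2A1* had no such cluster in any library. Many of these reads are also listed at the members. With RNase I 0.05/0.05, clusters of 723, 177 and 42 reads on chromosome 12 equalled *PGAM1* clusters of the same sequence in their reads.

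Within the member genes but outside their exons, the clusters held 12 reads with RNase I 0.05/0.05 and 14 with RNase T1 1/1, all in *PGK1*, and none in the other libraries.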

How the results depend on the processing

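Values are given in the order RNase I 0.05/0.05, 0.1/0.025, 0.05/0.025, RNase T1 1/1 and 0.25/0.25. Requiring more than 0.75 conversions per read left 5, 5, 4 and 4 members called in the first 4 libraries (14.4%, 26.1%, 24.6% and 15.7% of all genes). Requiring 20 reads left 4 with RNase T1 0.25/0.25 (5.4% of all genes), namely *SLC2A1*, *GAPDH*, *PGAM1* and *LDHA*. Other CPM or conversion limits and a 50% exon overlap moved no count by over 1.5 times. CPM of the members came to 2840, 3280, 3770, 1360 and 2860 with clusters of 1 exact match and to 3850, 4710, 5430, 2010 and 4810 over exonic reads of protein-coding genes. The 3′UTR share became 57.1%, 74.2%, 76.1% and 80.1% in the first 4 libraries with the coding sequence first, 78.2%, 86.1% and 87.1% with RNase I when reads were split by nucleotides, 86.9%, 90.3%, 90.4%, 87% and 94.1% with the features of all transcripts, and 80.2%, 86.5%, 87%, 80% and 88.9% with clusters of 1 exact match. Sites held by all 5 libraries fell from 19 to 6 when 50% of the site had to be covered. Conversions per read of the members moved from 0.6 to 0.568 at most, with clusters of 1 exact match in RNase T1 0.25/0.25. No paired analysis was possible because each condition is a single library. Clusters under 2 reads are not listed, mRNA abundance was not measured, and intervals do not cover differences between preparations.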
